A study of Arabidopsis thaliana with 30 samples.

Results

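The 7 genes described here encode proteins that load sucrose into the phloem or that fill companion cells and sieve elements in Arabidopsis thaliana. They were taken by their locus identifiers from a deposited expression table of 38088 genes, by a rule that uses no measured value. The choice of these genes was nevertheless made with earlier results of these data known. SWEET11 (AT3G48740) and SWEET12 (AT5G23660) are sucrose exporters, HA3 (AT5G57350) is a proton pump of the plasma membrane and SUC2 (AT1G22710) is a sucrose transporter. PP2-A1 (AT4G19840) is a phloem lectin, and SEOA (AT3G01670) and SEOB (AT3G01680) are structural proteins of the sieve element. All 7 passed the filter on low values.

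Messenger RNA was sequenced from seedlings aged 7 days, of 5 genotypes: the wild type Col-0, the mutants ski2 dcl4 and ski2 dcl4 dcl2, and the mutants named smxl4 smxl5 and smxl6 smxl7 smxl8. Each genotype was grown at 22 °C and either left without heat (control) or heated at 44 °C for 85 min, on sealed plates in a water bath, with 3 libraries in each of the 10 groups. SMXL4 and SMXL5 are proteins needed to form phloem, SMXL6, SMXL7 and SMXL8 repress strigolactone responses, SKI2 serves the cytoplasmic RNA exosome, and the nucleases DCL4 and DCL2 make small RNAs from double-stranded RNA. The labels name no alleles, and do not say whether the libraries of a group came from separate plates of seedlings, so the tests measure the spread between libraries, which may be technical.

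In Arabidopsis leaves, sucrose leaves phloem parenchyma cells through SWEET11 and SWEET12 and reaches the cell wall space. The proton gradient made by pumps such as HA3 then drives sucrose into companion cells through SUC2, and from there it passes into the sieve elements that carry it away. Companion cells also make PP2-A1, which moves into the sieve elements, where SEOA and SEOB proteins build filaments.

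Levels are given in FPKM, a unit that divides the fragments of a gene by its transcript length and by library size. The unit was inferred from the values, and whether these had been scaled further before deposit was not tested. Their median-of-ratios scaling factors were 0.9891 to 1.017, so by that measure the libraries already stood close to a common scale. Changes are differences of log2(FPKM + 1), which understate the change of weakly expressed genes, and a gene was called changed at an adjusted p under 0.05 in limma, adjusted over the 21531 genes tested. Sums over all genes ranged from 735524 to 904077 FPKM in control libraries and from 931940 to 1099793 in heat libraries, without overlap, and 23996 to 25857 genes had a value above 0. Depth was estimated from the most frequent low value among genes that never exceeded 1 FPKM, taken as 1 fragment, at 14.2 to 21.5 fragments per FPKM and kilobase. It was 14.2 to 17.4 in heat libraries and 17.4 to 21.5 in control libraries. By that estimate 77 to 1490 fragments stood behind a SWEET12 value and 2060 to 4900 behind a PP2-A1 value. The control libraries labelled smxl4 smxl5 held more, not less, SMXL5 transcript than Col-0, at mean levels of 15.01 against 4.57 FPKM (adjusted p = 4.95e-11), and more SMXL4, at 3.22 against 1.93 FPKM (adjusted p = 0.00132). After heat SMXL4 stood at 1.08 against 2.22 FPKM (adjusted p = 0.000192) and SMXL5 at 3.05 against 3.12 FPKM (adjusted p = 0.871). They are therefore called the libraries labelled smxl4 smxl5 throughout. Transcripts of SKI2 were lower in both ski2 genotypes, DCL2 was lower in ski2 dcl4 dcl2, and SMXL6 and SMXL8 were lower in smxl6 smxl7 smxl8. DCL4 in ski2 dcl4 stood at 3.44 against 3.41 FPKM at control (adjusted p = 0.941) and was lower after heat, at 2.35 against 3.26 FPKM (adjusted p = 0.00353). SMXL7 in smxl6 smxl7 smxl8 likewise stood at 8.20 against 8.09 FPKM at control (adjusted p = 0.928) and was lower after heat, at 3.19 against 8.09 FPKM (adjusted p = 1.49e-07). Genotype names are those of the labels.

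Col-0 heat replicate 2 stood apart from the other two heated Col-0 libraries in clock genes, being the lowest of the 3 for 8 of 11 and the highest for 3. It held 5.55 FPKM of PRR5 against 27.5 and 26.1 FPKM in replicates 1 and 3, and 2.54 FPKM of ELF4 against 17.8 and 11.9 FPKM. The summed level of the 11 genes was 121.6 FPKM in replicate 2 against 195.3 and 191.7 FPKM. Leaving this library out ended 4 calls among the 7 phloem genes and added none. They were the fall of SUC2 with heat in Col-0 (−0.27, adjusted p = 0.141), the higher SUC2 in ski2 dcl4 (0.35, adjusted p = 0.0732) and the higher SWEET12 in ski2 dcl4 dcl2 (0.39, adjusted p = 0.0819) than in Col-0 after heat, and the difference in the SWEET11 heat response between libraries labelled smxl4 smxl5 and Col-0 (−0.48, adjusted p = 0.0512). The share of all genes called for ski2 dcl4 dcl2 against Col-0 after heat went from 5.93% to 2.86% without it.

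**Figure D1:**
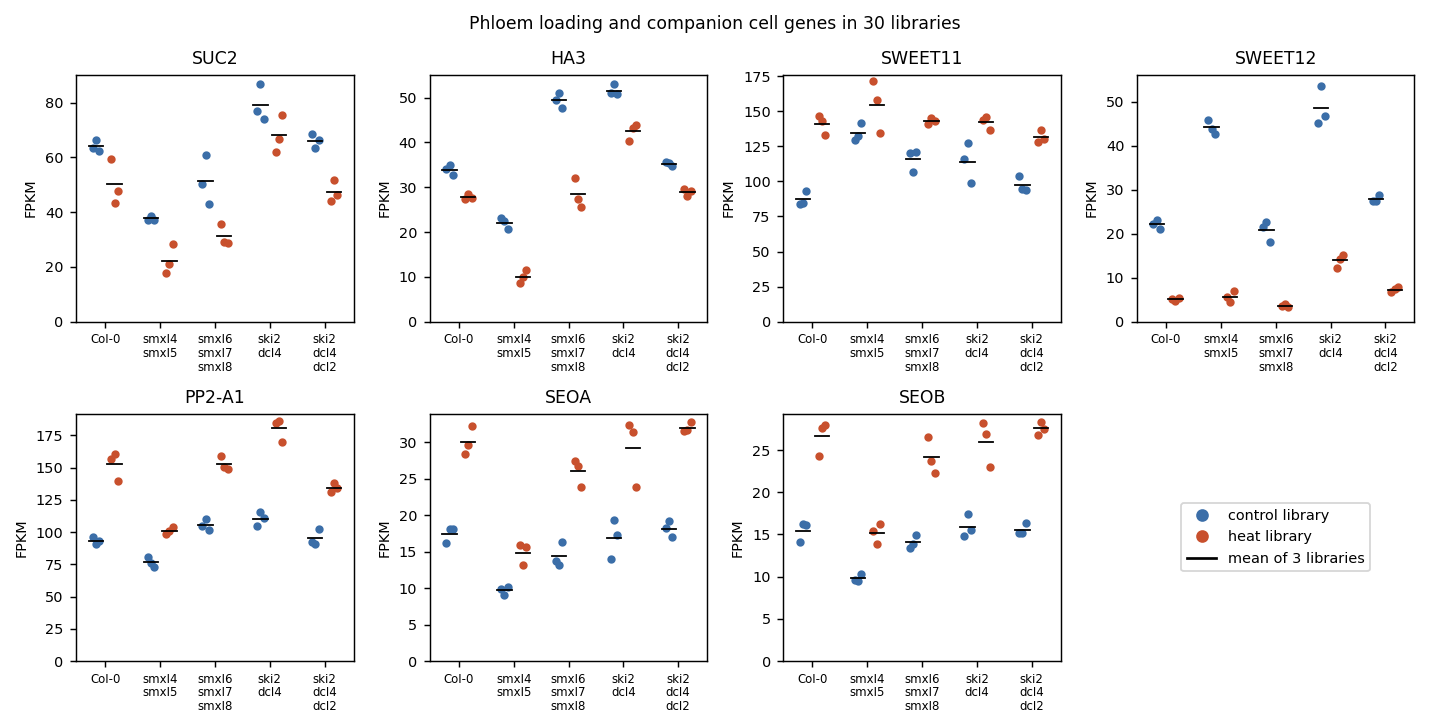
FPKM of the 7 genes in each of 30 libraries, with control libraries in blue, heat libraries in red and the mean of 3 libraries as a bar; every axis starts at 0. SWEET12 and HA3 lie lower and SEOA, SEOB and PP2-A1 higher after heat in each genotype, and heated libraries labelled smxl4 smxl5 hold the lowest HA3 mean, 10.07 FPKM.

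Of the sucrose exporters, SWEET12 fell with heat in all 5 genotypes, while SWEET11 was called higher in 4 of them, and in 3 of these 4 that call was lost after rescaling to equal FPKM sums. SWEET11 lies on chromosome 3 from 18052466 to 18054832 and SWEET12 on chromosome 5 from 7971647 to 7973995, both on the minus strand and each with 6 exons, in the RefSeq annotation of TAIR10.1. The 250 bases before their annotated starts are printed because the pair share a function and diverged in level. They come from the TAIR10.1 genome at chr3:18054833-18055082 and chr5:7973996-7974245, minus strand, read 5′ to 3′. Capitals mark a match to the core of the heat shock element.

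SWEET11: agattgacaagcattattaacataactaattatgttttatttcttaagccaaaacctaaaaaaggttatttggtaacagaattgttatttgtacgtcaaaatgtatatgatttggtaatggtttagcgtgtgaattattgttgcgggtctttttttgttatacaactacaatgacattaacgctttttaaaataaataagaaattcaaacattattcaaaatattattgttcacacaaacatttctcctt

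SWEET12: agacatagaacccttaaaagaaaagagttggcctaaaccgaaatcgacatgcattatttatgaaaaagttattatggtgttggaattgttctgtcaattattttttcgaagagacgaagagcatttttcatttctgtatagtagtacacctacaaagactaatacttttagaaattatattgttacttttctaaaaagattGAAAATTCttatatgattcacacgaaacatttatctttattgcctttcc

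The element was searched as GAANNTTC or TTCNNGAA, 2 patterns that cover both strands. SWEET12 holds GAAAATTC from 49 to 42 bases before the start and SWEET11 holds no match in this window. HA3 holds TTCCAGAA from 11 to 4 bases before its start, so that 2 of the 7 genes hold the element, which 16.1% of 27443 gene starts also hold. The evening element AAAATATCT, searched on both strands, was in none of the 7 windows and in 2.36% of all. A match of letters is a description and not a binding site.

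SWEET12 fell with heat in all 5 genotypes. In Col-0 its levels were 22.3, 23.2 and 21.0 FPKM at control and 5.27, 4.63 and 5.38 FPKM after heat. The libraries labelled smxl4 smxl5 held 45.9, 43.8 and 42.7 FPKM at control and 5.53, 4.50 and 6.93 FPKM after heat. Control levels there lay above every Col-0 library, while the heated libraries of both overlapped. In smxl6 smxl7 smxl8 the levels were 21.6, 22.7 and 18.1 FPKM at control and 3.51, 4.06 and 3.37 FPKM after heat. The ski2 dcl4 libraries held 45.1, 53.7 and 46.8 FPKM at control and 12.3, 14.3 and 15.1 FPKM after heat. No heated library of any genotype reached a control library of the same genotype, and ski2 dcl4 had the highest mean under both conditions. With dcl2 also mutated, levels were 27.4, 27.3 and 28.8 FPKM at control and 6.65, 7.41 and 7.89 FPKM after heat. The heat change in log2(FPKM + 1) was −1.93 ± 0.11 (SE) in Col-0, −2.78 for the label smxl4 smxl5, −2.23 in smxl6 smxl7 smxl8, and −1.73 and −1.80 for ski2 dcl4 without and with dcl2. The highest of the 5 adjusted p-values was 9.3e-12, and with any 1 library left out these changes stayed between −2.91 and −1.65. Ordered by mean level, the heated groups took the 5 lowest places, from 3.65 FPKM in smxl6 smxl7 smxl8 to 13.9 FPKM in ski2 dcl4. Neighbouring groups overlapped only between heated Col-0, libraries labelled smxl4 smxl5 and ski2 dcl4 dcl2, between control smxl6 smxl7 smxl8 and Col-0, and between control libraries labelled smxl4 smxl5 and ski2 dcl4.

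SWEET11 was the more abundant exporter in every library. Its levels in Col-0 were 84.1, 84.7 and 92.9 FPKM at control and 146.8, 143.2 and 132.7 FPKM after heat. In the other genotypes control libraries ranged from 93.5 FPKM in ski2 dcl4 dcl2 to 141.8 FPKM in those labelled smxl4 smxl5, and heated libraries from 127.8 to 171.8 FPKM. Control Col-0 held the lowest mean of the 10 groups, 87.2 FPKM, below every library of the next group. After heat the 5 genotypes, with the control libraries labelled smxl4 smxl5 among them, formed a run in which each group overlapped the next. SWEET11 rose in Col-0, by 0.69 ± 0.08 in log2(FPKM + 1) (adjusted p = 2.4e-07), and in ski2 dcl4 dcl2 (0.43, adjusted p = 0.000149), ski2 dcl4 (0.32, adjusted p = 0.00204) and smxl6 smxl7 smxl8 (0.30, adjusted p = 0.00384), but for ski2 dcl4 the sign turned to −0.02 (adjusted p = 0.839) after rescaling to equal FPKM sums. That rescaling also ended the call in smxl6 smxl7 smxl8 (0.05, adjusted p = 0.692) and in ski2 dcl4 dcl2 (0.20, adjusted p = 0.0666). Libraries labelled smxl4 smxl5 held 129.8, 132.2 and 141.8 FPKM at control and 171.8, 157.7 and 134.8 FPKM after heat, and their overlap left a change of 0.19 without a call (adjusted p = 0.0519). Without heat replicate 3 with that label the change was 0.29 (adjusted p = 0.00525), and it was also called without control replicate 3 (0.0427) and under median-of-ratios rescaling (0.0457).

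**Figure D2:**
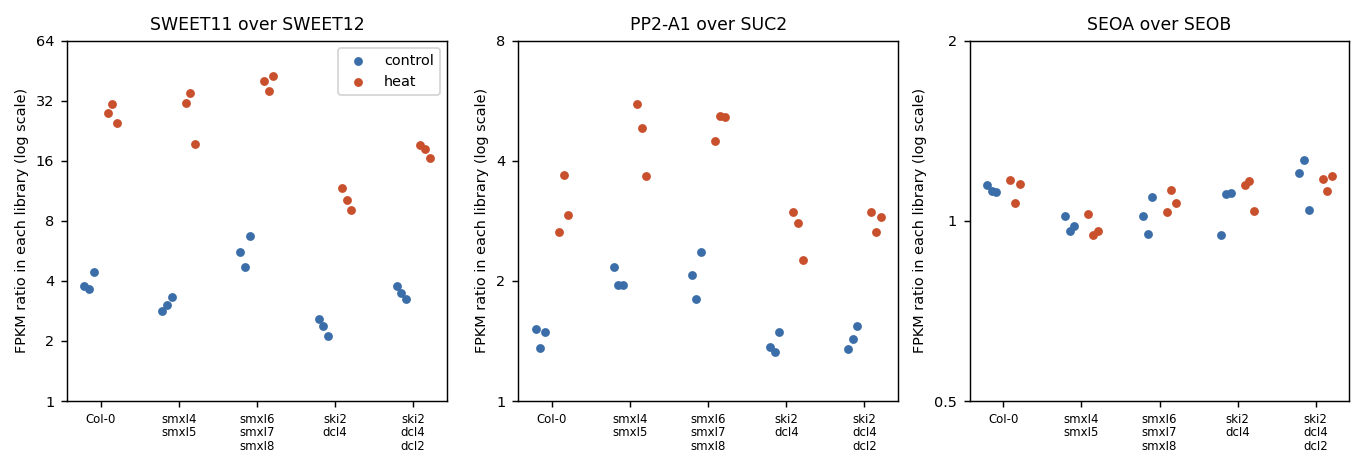
Ratio of the FPKM of 2 genes within each library on a log axis, in 5 genotypes, with control in blue and heat in red. The SWEET11 to SWEET12 ratio and the PP2-A1 to SUC2 ratio lie higher after heat in each genotype, whereas the SEOA to SEOB ratio stays between 0.946 and 1.26.

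A ratio of 2 genes within a library does not depend on how the library was scaled, although it shows unequal change and not which gene moved. SWEET11 was 3.66 to 4.43 times SWEET12 in the Col-0 control libraries and 24.7 to 30.9 times after heat. Across all genotypes the ratio ran from 2.12 to 6.70 at control and from 9.03 to 42.5 after heat. The mean difference in the log2 ratio was 2.66, with no overlap in any genotype. An exact 2-sided permutation of heat and control within genotypes gave p = 6.25e-07, the smallest it can give, whereas within a single genotype 3 against 3 libraries cannot go below 0.1. The ratio was computed from the same values as the SWEET11 and SWEET12 changes above, so it is not separate evidence.

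HA3, the pump that energises sucrose uptake in companion cells, lies on chromosome 5 from 23230874 to 23236682 on the minus strand, with 17 exons in its longest transcript. In Col-0 its levels were 34.2, 35.0 and 32.7 FPKM at control and 27.5, 28.4 and 27.5 FPKM after heat. The libraries labelled smxl4 smxl5 were the lowest, with 23.2, 22.5 and 20.7 FPKM at control and 8.69, 10.09 and 11.4 FPKM after heat. These heated libraries lay below every other library, and the control libraries with the same label came next. In contrast, smxl6 smxl7 smxl8 held 49.4, 51.1 and 47.7 FPKM at control and 32.1, 27.4 and 25.7 FPKM after heat. High levels under both conditions were seen in ski2 dcl4, at 51.0, 53.0 and 50.7 FPKM at control and 40.3, 43.2 and 43.9 FPKM after heat. With dcl2 also mutated the levels were 35.6, 35.5 and 34.7 FPKM at control and 29.7, 28.1 and 29.2 FPKM after heat, and at control they overlapped with those of Col-0. Heat lowered HA3 in all 5 genotypes, by log2 changes of −0.28 ± 0.07 in Col-0, −0.27 in both ski2 genotypes, −0.78 in smxl6 smxl7 smxl8 and −1.07 under the label smxl4 smxl5 (highest adjusted p = 0.00338). Next to each other in the order of means, heated Col-0, smxl6 smxl7 smxl8 and ski2 dcl4 dcl2 overlapped, and so did control smxl6 smxl7 smxl8 and ski2 dcl4.

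SUC2, which takes sucrose into companion cells and is a classic marker of them, lies on chromosome 1 from 8030587 to 8033156 on the minus strand. Its levels in Col-0 were 63.6, 66.5 and 62.3 FPKM at control and 59.3, 43.5 and 47.6 FPKM after heat. Libraries labelled smxl4 smxl5 held 37.3, 38.8 and 37.2 FPKM at control and 17.7, 20.9 and 28.4 FPKM after heat, below every Col-0 library of the same condition. In smxl6 smxl7 smxl8 the levels were 50.4, 60.9 and 43.0 FPKM at control and 35.5, 29.0 and 28.9 FPKM after heat. The highest means were those of ski2 dcl4, at 76.9, 86.8 and 74.1 FPKM at control and 62.0, 66.7 and 75.4 FPKM after heat, where both conditions overlapped. For ski2 dcl4 dcl2 they were 68.4, 63.3 and 66.3 FPKM at control and 44.1, 51.9 and 46.3 FPKM after heat. SUC2 fell with heat by a log2 change of −0.76 ± 0.14 under the label smxl4 smxl5 (adjusted p = 5.46e-05). It also fell in ski2 dcl4 dcl2 (−0.47, adjusted p = 0.00606) and smxl6 smxl7 smxl8 (−0.70, adjusted p = 0.000154). In Col-0 the fall was −0.36 (adjusted p = 0.0274), and leaving out control replicate 1 or 2 or heat replicate 2 or 3 ended the call, with adjusted p-values of 0.0526, 0.0769, 0.141 and 0.077. The change in ski2 dcl4 was −0.22 (adjusted p = 0.179) and was called after upper-quartile rescaling (−0.37, adjusted p = 0.0265) and after rescaling to equal sums (−0.56, adjusted p = 0.00118). Heated libraries labelled smxl4 smxl5, heated smxl6 smxl7 smxl8 and control libraries labelled smxl4 smxl5 formed the low end of the order without overlap between neighbours, from means of 22.3 to 37.7 FPKM.

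PP2-A1, a lectin made in companion cells, lies on chromosome 4 from 10773804 to 10775942 on the plus strand. Of its 1465 windows of 50 bases, 235 (16%) were shared with the gene AT4G19830, which overlaps it on the opposite strand, and the sources do not say whether counting used strand. AT4G19830 stood at 17.2 FPKM in control and 31.7 FPKM in heated Col-0, so the PP2-A1 values are uncertain by what the 2 genes share. PP2-A1 levels in Col-0 were 96.5, 90.4 and 92.9 FPKM at control and 157.0, 160.8 and 139.4 FPKM after heat. Libraries labelled smxl4 smxl5 held 80.9, 75.9 and 72.7 FPKM at control, below every other library, and 98.4, 101.2 and 103.9 FPKM after heat. In the remaining genotypes control libraries ranged from 90.5 to 115.4 FPKM and heated libraries from 131.2 to 186.0 FPKM, with the heated ski2 dcl4 libraries at the top. PP2-A1 rose with heat in all 5 genotypes, by log2 changes of 0.70 ± 0.06 in Col-0 and ski2 dcl4, 0.53 in smxl6 smxl7 smxl8, 0.50 in ski2 dcl4 dcl2 and 0.40 under the label smxl4 smxl5 (highest adjusted p = 5.91e-06). Rescaling to equal sums ended the call under the label smxl4 smxl5 (0.02, adjusted p = 0.846). Within each library PP2-A1 was 1.33 to 2.36 times SUC2 at control and 2.25 to 5.57 times after heat, with no overlap in any genotype and a mean log2 difference of 1.09 (exact 2-sided permutation within genotypes, p = 6.25e-07). That ratio was computed from the same values as the PP2-A1 and SUC2 changes above, so it is not separate evidence.

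SEOA and SEOB, whose proteins form filaments in sieve elements, rose together with heat in all 5 genotypes. They are neighbours on chromosome 3, from 247192 to 250472 and from 251868 to 255513, both on the plus strand, with 1395 bases and 0 genes between them. No window of 50 bases was shared with another gene for either, nor for SUC2, HA3, SWEET11 or SWEET12. The 250 bases before each start are printed because the 2 genes moved together. They were read from the TAIR10.1 genome at chr3:246942-247191 and chr3:251618-251867, plus strand, 5′ to 3′. Capitals mark a G-box, searched as CACGTG, which reads the same on both strands.

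SEOA: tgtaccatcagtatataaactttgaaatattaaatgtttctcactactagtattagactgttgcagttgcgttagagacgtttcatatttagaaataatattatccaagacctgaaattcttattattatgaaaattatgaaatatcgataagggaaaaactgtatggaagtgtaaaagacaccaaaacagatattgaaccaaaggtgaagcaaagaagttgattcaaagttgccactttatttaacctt

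SEOB: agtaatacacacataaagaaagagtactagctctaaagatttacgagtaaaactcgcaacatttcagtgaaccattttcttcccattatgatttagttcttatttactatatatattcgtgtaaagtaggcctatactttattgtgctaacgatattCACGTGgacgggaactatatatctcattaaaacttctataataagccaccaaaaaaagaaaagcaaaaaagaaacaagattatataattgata

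The G-box of SEOB runs from 93 to 88 bases before the start, SUC2 holds one from 42 to 37 bases before its start, and SEOA holds none in this window. It was found in 2 of the 7 genes and in 6.49% of all gene starts.

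SEOA levels in Col-0 were 16.1, 18.1 and 18.0 FPKM at control and 28.5, 29.6 and 32.2 FPKM after heat. Those of SEOB were 14.1, 16.2 and 16.1 FPKM at control and 24.3, 27.6 and 27.9 FPKM after heat. For both genes, each heated Col-0 library lay above each control library. In libraries labelled smxl4 smxl5, SEOA stood at 9.82, 9.12 and 10.13 FPKM at control and 15.9, 13.2 and 15.6 FPKM after heat. SEOB there stood at 9.66, 9.47 and 10.3 FPKM at control and 15.4, 13.9 and 16.2 FPKM after heat. Both genes were lower in these libraries than in Col-0 under the same condition. For SEOB, the heated libraries with this label overlapped the control libraries of every other genotype. For SEOA they overlapped those of smxl6 smxl7 smxl8 and ski2 dcl4 only, and lay below the control libraries of Col-0 and ski2 dcl4 dcl2. In smxl6 smxl7 smxl8 and both ski2 genotypes SEOA ran from 13.2 to 19.4 FPKM at control and from 23.8 to 32.7 FPKM after heat, and SEOB from 13.4 to 17.4 and from 22.3 to 28.3 FPKM. The heat change in log2(FPKM + 1) lay between 0.57 under the label smxl4 smxl5 and 0.81 in smxl6 smxl7 smxl8 for SEOA, and between 0.58 and 0.79 for SEOB, with a highest adjusted p of 0.000119. After rescaling to equal sums the calls in the libraries labelled smxl4 smxl5 were lost, at 0.21 (adjusted p = 0.161) for SEOA and 0.22 (adjusted p = 0.0533) for SEOB. The SEOA to SEOB ratio was 0.949 to 1.26 at control and 0.946 to 1.19 after heat, and its mean log2 difference of 0.03 was not separated from 0 (exact 2-sided permutation within genotypes, p = 0.346). For both genes the 4 heated groups other than those labelled smxl4 smxl5 formed the upper end of the order, overlapping with one another but not with any group below.

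**Figure D3:**
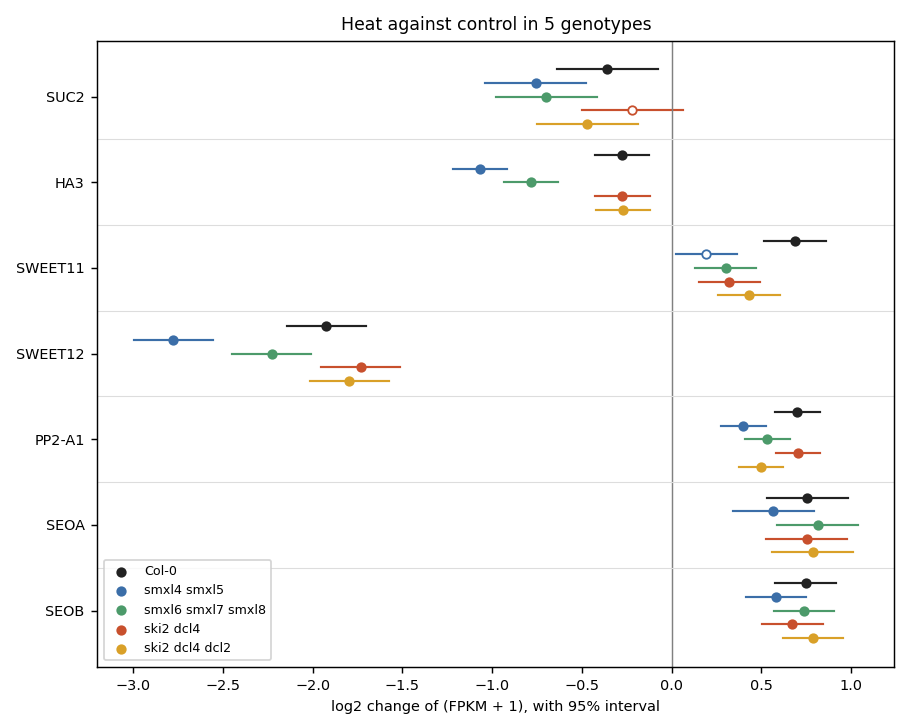
Heat minus control for the 7 genes in 5 genotypes, as differences in log2(FPKM + 1) with 95% intervals from limma, with filled points where the adjusted p was under 0.05. SWEET12 lies between −2.78 and −1.73 and the SEOA, SEOB and PP2-A1 points lie above 0, while the sign of SWEET11 in ski2 dcl4 turned after rescaling to equal sums.

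In Col-0, heat raised 4 of the 7 genes (SWEET11, PP2-A1, SEOA and SEOB) and lowered 3 (SWEET12, HA3 and SUC2), where 57.2% of all genes tested were called, 29.9% higher and 27.3% lower. Under the label smxl4 smxl5, 3 genes rose and 3 fell (background 53.9%, with 29.9% higher and 24% lower). In smxl6 smxl7 smxl8, 4 rose and 3 fell (52.9%, with 28.7% higher and 24.1% lower). For ski2 dcl4, 4 rose and 2 fell (55.6%, with 32% higher and 23.6% lower), and for ski2 dcl4 dcl2, 4 rose and 3 fell (50.1%, with 25.8% higher and 24.3% lower). With about every other gene called, these counts alone say little, and the sizes and directions above carry the comparison. In these bulk samples, fewer cells of a type and less RNA per cell cannot be told apart. Photosynthesis genes of leaf mesophyll rose with heat in Col-0, in 9 of 9 tested (6 of 9 under equal sums), and their summed level went from 30886 to 36735 FPKM at control to 48973 to 56523 FPKM after heat, with CAB1 listed at 0 in all libraries. Their part in the heat results was not tested. Rescaling to equal sums, chosen after the sums were seen to differ, moved the median change over all genes from 0.01 to −0.26 in Col-0, and to between −0.25 and −0.15 in the other genotypes. It changed the split of all genes called in Col-0 from 6437 higher and 5880 lower to 2391 and 10165, and upper-quartile rescaling gave 5017 and 7187. Relative to those medians SWEET11, PP2-A1, SEOA and SEOB lay higher after heat under equal sums as well, for example SWEET11 in ski2 dcl4 at −0.02 against −0.23. Rescaling shifts a gene and the median nearly alike, so this repeats the main result and is no check on the calls lost.

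All 7 genes differed between the control libraries labelled smxl4 smxl5 and Col-0, where 30.1% of all genes were called, 15.3% higher and 14.8% lower. SUC2 (log2 change −0.75 ± 0.14), HA3 (−0.60 ± 0.07), SEOA (−0.79 ± 0.11), SEOB (−0.60 ± 0.08) and PP2-A1 (−0.28 ± 0.06) were lower, while the exporters SWEET11 (0.62 ± 0.08) and SWEET12 (0.97 ± 0.11) were higher, with a highest adjusted p of 0.00096. After heat the 5 lower genes were still called lower (background 36.3%, with 19.1% higher and 17.2% lower), with SUC2 at −1.15, HA3 at −1.39, SEOA at −0.97, SEOB at −0.77 and PP2-A1 at −0.58 (highest adjusted p = 1.27e-06). SWEET11 and SWEET12 were 0.13 and 0.11 above Col-0 (adjusted p = 0.238 and 0.44, 95% intervals −0.04 to 0.30 and −0.11 to 0.33), and leaving out heat replicate 3 of the libraries labelled smxl4 smxl5 made the SWEET11 difference a call (0.22, adjusted p = 0.0399).

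The heat response itself differed from that of Col-0 for 3 of the 7 genes in the libraries labelled smxl4 smxl5, where 2.08% of all genes had such a difference, 0.725% higher and 1.36% lower. SWEET12 fell further, by a difference of −0.85 ± 0.15 (adjusted p = 0.00463), and HA3 fell further, by −0.79 ± 0.10 (adjusted p = 0.000353). SWEET11 rose less, by −0.49 ± 0.12 (adjusted p = 0.0282), a call lost when any of 8 of the 12 libraries was left out (adjusted p from 0.0512 to 0.0785) and when only the groups compared entered the fit (0.0817). The 8 were Col-0 control replicates 1 and 2, Col-0 heat replicates 1 and 2, and replicates 2 and 3 of each condition labelled smxl4 smxl5. PP2-A1 had a difference of −0.30 (adjusted p = 0.0622) that was called under upper-quartile rescaling (0.037), equal sums (0.0416) and without Col-0 heat replicate 3 (0.019). SEOA and SEOB differed by −0.19 and −0.17 (adjusted p = 0.577 and 0.49), and SUC2 by −0.40 (adjusted p = 0.295). In the libraries with this label SMXL5 stood at 15.01 FPKM at control and 3.05 FPKM after heat, against 4.57 and 3.12 FPKM in Col-0. SMXL4 stood at 3.22 and 1.08 FPKM, against 1.93 and 2.22 FPKM in Col-0. The part of these levels in the differences of heat response was not tested.

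Clock genes differed between the same groups. Of 11 clock genes, 2 were higher and 9 lower at control under the label smxl4 smxl5 than in Col-0, such as LHY, a morning gene, at 19.2 ± 0.494 (SD, n = 3) against 1.02 ± 0.111 FPKM, and GI, an afternoon gene, at 6.45 ± 0.210 against 22.0 ± 0.493 FPKM. Their summed level was 100.4 to 105.0 FPKM against 189.8 to 208.6 FPKM in Col-0, and in smxl6 smxl7 smxl8, with 2 higher and 8 lower, it was 98.5 to 108.6 FPKM, with LHY at 7.79 ± 0.556 FPKM. After heat 2 were higher and 8 lower in the libraries labelled smxl4 smxl5, with sums of 98.6 to 115.9 FPKM against 121.6 to 195.3 FPKM, where Col-0 heat replicate 2 gave the lowest. The part of clock phase or of the hour of harvest in the phloem results was not tested.

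In smxl6 smxl7 smxl8 at control, 3 of the 7 genes were higher than in Col-0 (background 26.6%, with 13.4% higher and 13.2% lower): SWEET11 by 0.41 ± 0.08 (adjusted p = 0.000802), HA3 by 0.53 ± 0.07 (adjusted p = 1.55e-05) and PP2-A1 by 0.17 ± 0.06 (adjusted p = 0.0358). The PP2-A1 call was lost without Col-0 control replicate 2 or 3 or without smxl6 smxl7 smxl8 control replicate 1 or 2 (adjusted p = 0.127, 0.0803, 0.0672 and 0.119), and under equal sums (0.0723). SUC2 was −0.33 from Col-0 (adjusted p = 0.0801) and was called lower without smxl6 smxl7 smxl8 control replicate 2 (adjusted p = 0.0237), as SEOA, at −0.26 (adjusted p = 0.0786), was without replicate 3 (0.03). Replicate 2 of this group had the highest FPKM sum of all control libraries, 904077, against 789558 and 797150 in replicates 1 and 3. It held 60.9 FPKM of SUC2, against 50.4 and 43.0 FPKM. After heat 2 of the 7 were lower (background 23.8%, with 11.7% higher and 12.1% lower), SUC2 by −0.67 (adjusted p = 0.00136) and SWEET12 by −0.39 (adjusted p = 0.0105, or 0.0536 without smxl6 smxl7 smxl8 heat replicate 3). The heat response differed from that of Col-0 for HA3 alone (background 5.29%, with 1.41% higher and 3.89% lower), by −0.50 ± 0.10 (adjusted p = 0.00843), a call lost with only the groups compared in the fit (0.0653) and under equal sums (0.0563). For SWEET11 the difference was −0.39 (adjusted p = 0.0541), called without Col-0 heat replicate 3 (0.0419) and under median-of-ratios rescaling (0.0483). SMXL7 stood at 8.20 FPKM at control and 3.19 FPKM after heat in smxl6 smxl7 smxl8, against 8.09 FPKM under both conditions in Col-0. Its part in these heat responses was not tested.

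The libraries labelled smxl4 smxl5 were also set directly against smxl6 smxl7 smxl8. At control 6 of the 7 genes differed (background 18.2%, with 8.41% higher and 9.8% lower), with HA3 at −1.13, SEOA at −0.52, SEOB at −0.48, PP2-A1 at −0.46 and SUC2 at −0.42 lower and SWEET12 at 1.06 higher. Of these, SUC2 (adjusted p = 0.0324) lost its call without any 1 of 5 libraries, namely the 3 labelled smxl4 smxl5 and smxl6 smxl7 smxl8 replicates 1 and 2 (adjusted p from 0.0633 to 0.196). After heat the same 6 genes were called in the same directions (background 22.2%, with 12.3% higher and 9.98% lower), with HA3 at −1.41, SEOA at −0.77, SEOB at −0.64, PP2-A1 at −0.59, SUC2 at −0.48 and SWEET12 at 0.50. SUC2 (adjusted p = 0.0127) was not called there without replicate 1 or 2 of the libraries labelled smxl4 smxl5 or replicate 1 of smxl6 smxl7 smxl8 (adjusted p = 0.093, 0.0503 and 0.0772). With only the groups compared in the fit, SUC2 was called under neither condition (0.0876 and 0.0967) and SWEET12 not after heat (0.0521). Of the 11 clock genes 1 was higher and 2 lower under each condition.

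**Figure D4:**
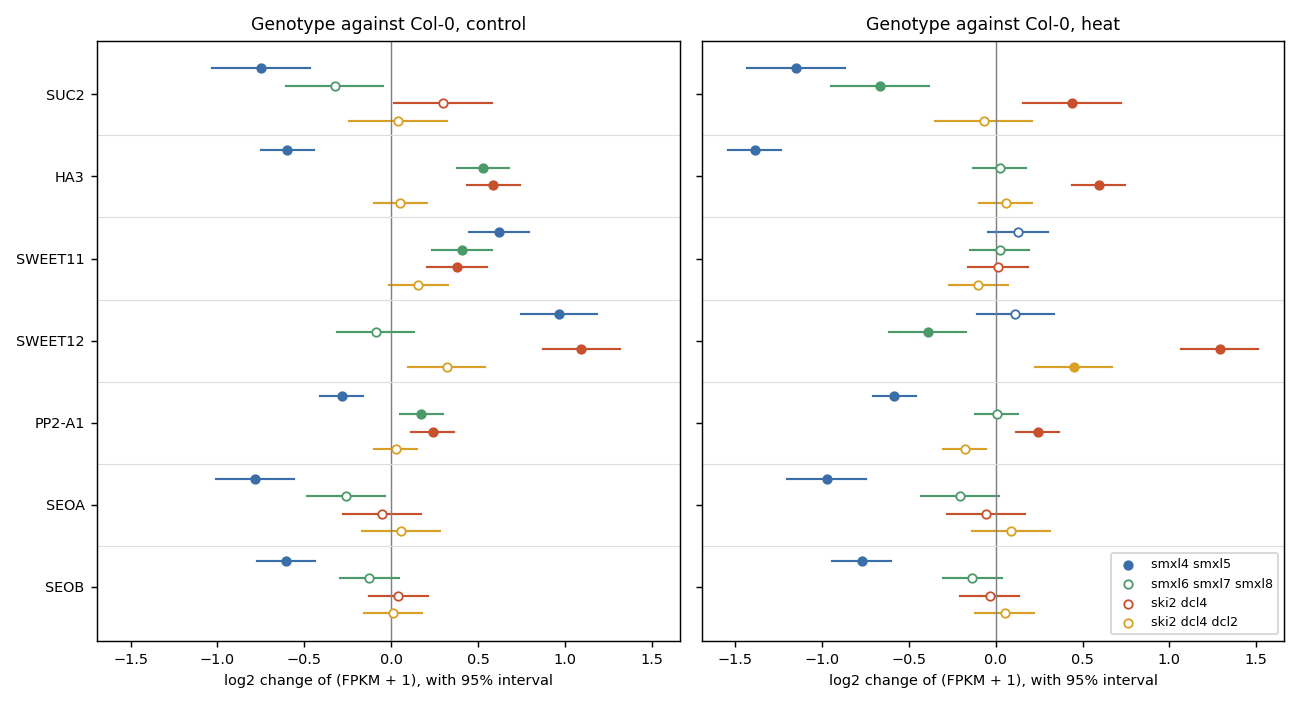
Each genotype minus Col-0 for the 7 genes at control (left) and after heat (right), as differences in log2(FPKM + 1) with 95% intervals from limma, filled where the adjusted p was under 0.05. Libraries labelled smxl4 smxl5 lie below 0 for SUC2, HA3, PP2-A1, SEOA and SEOB in both panels, and ski2 dcl4 lies above 0 for SWEET12, at 1.10 and 1.29.

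In ski2 dcl4, SWEET12, HA3 and PP2-A1 were called higher than in Col-0 under both conditions, SWEET11 at control and SUC2 after heat, while SEOA and SEOB were called under neither. At control 4 of the 7 were higher (background 33.3%, with 16.1% higher and 17.1% lower), SWEET12 by 1.10 ± 0.11 (adjusted p = 5.4e-08), HA3 by 0.59 (adjusted p = 1.67e-06), SWEET11 by 0.38 (adjusted p = 0.00108) and PP2-A1 by 0.24 (adjusted p = 0.00361). SUC2 was 0.30 above Col-0 (adjusted p = 0.0956, or 0.024 with only the groups compared and 0.0115 under equal sums). After heat 4 were higher (background 39.5%, with 22.3% higher and 17.2% lower), SWEET12 by 1.29 (adjusted p = 2.99e-09), HA3 by 0.59 (adjusted p = 9.98e-07), SUC2 by 0.44 (adjusted p = 0.0126) and PP2-A1 by 0.24 (adjusted p = 0.00246). SWEET11 then stood at 142.2 ± 4.77 against 140.9 ± 7.32 FPKM (SD, n = 3), a log2 difference of 0.01 (adjusted p = 0.917 in limma, 95% interval −0.16 to 0.18). Without Col-0 heat replicate 2 or ski2 dcl4 heat replicate 3 the SUC2 call was lost (adjusted p = 0.0732 and 0.07). SEOA differed from Col-0 by −0.05 under both conditions and SEOB by 0.04 at control and −0.03 after heat, with 95% intervals for SEOA of −0.28 to 0.17 at control and for SEOB of −0.20 to 0.13 after heat. For none of the 7 genes did limma call the heat response different from Col-0 (0.372% of all genes called, 0.232% higher and 0.139% lower), and 1, SWEET11, had an unadjusted p under 0.05. Rescaling to equal sums moved the median difference over all genes from 0.00 to 0.13 at control and from 0.03 to 0.15 after heat, and all 4 genes called under each condition stayed higher, with SWEET12 at 1.24 and 1.41. Without a call, SEOA then lay at 0.09 and 0.10 and SEOB at 0.18 and 0.12, so that the sign of SEOA under both conditions and of SEOB after heat depended on scaling.

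With dcl2 also mutated, none of the 7 genes was called against Col-0 at control by limma (background 1.66%, with 1.49% higher and 0.172% lower), and 1, SWEET12 at 0.32 (adjusted p = 0.226), had an unadjusted p under 0.05 and was called with only the groups compared in the fit (adjusted p = 0.0391). After heat 1 was called (background 5.93%, with 2.94% higher and 2.98% lower), SWEET12 at 0.45 (adjusted p = 0.0125), which was lost without Col-0 heat replicate 2 (0.0819), without ski2 dcl4 dcl2 heat replicate 3 (0.0671) and with only the groups compared (0.0921). PP2-A1 was called lower, at −0.24 (adjusted p = 0.0201), without Col-0 heat replicate 3. No heat response differed from Col-0 by limma (0.0464% of all genes called, 0.0372% higher and 0.00929% lower), and 2 of the 7, SWEET11 and PP2-A1, had an unadjusted p under 0.05. These comparisons share the Col-0 libraries, so their values are given side by side.

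Set directly against ski2 dcl4, the ski2 dcl4 dcl2 libraries were lower for 4 of the 7 genes at control (background 26.4%, with 15.2% higher and 11.2% lower). SWEET12 differed by −0.78 ± 0.11 (adjusted p = 1.09e-05), HA3 by −0.54 (adjusted p = 1.06e-05), PP2-A1 by −0.21 (adjusted p = 0.0104) and SWEET11 by −0.22 (adjusted p = 0.0495). The SWEET11 libraries overlapped, and its call was lost without ski2 dcl4 control replicate 1 or 2 or ski2 dcl4 dcl2 control replicate 2 or 3 (adjusted p from 0.134 to 0.249) and under 6 other alternatives, and for PP2-A1 without ski2 dcl4 dcl2 control replicate 2 the adjusted p was 0.0601. SUC2 differed by −0.26 (adjusted p = 0.172), called with only the groups compared (0.0409) and under equal sums (0.0306). After heat 4 were lower (background 36.8%, with 15.6% higher and 21.2% lower), SWEET12 by −0.84 (adjusted p = 2.17e-06), HA3 by −0.53 (adjusted p = 6.14e-06), PP2-A1 by −0.42 (adjusted p = 1.05e-05) and SUC2 by −0.51 (adjusted p = 0.00517). SEOA differed by 0.11 and 0.14 and SEOB by −0.03 and 0.09 at control and after heat, without a call. Xylem genes moved with this comparison, 6 of 8 being higher in ski2 dcl4 dcl2 at control, with summed levels of 98.1 to 106.3 FPKM against 66.6 to 68.8 FPKM in ski2 dcl4, and their part was not tested.

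The balance of higher and lower calls over all genes depended on scaling in several of these genotype comparisons. Under equal sums it went from 3476 higher and 3690 lower to 6466 and 2095 for ski2 dcl4 against Col-0 at control, and from 4798 and 3713 to 7479 and 2120 after heat. For ski2 dcl4 dcl2 against Col-0 after heat it went from 634 and 642 to 1306 and 125, or to 711 and 405 with the upper quartile. Against ski2 dcl4 it went from 3277 and 2415 to 1915 and 5036 at control under equal sums, and from 3369 and 4555 to 4064 and 3660 after heat with the upper quartile. For smxl6 smxl7 smxl8 against Col-0 after heat it went from 2518 and 2610 to 3343 and 1571 under equal sums, and for libraries labelled smxl4 smxl5 against smxl6 smxl7 smxl8 after heat from 2641 and 2148 to 1315 and 3624. Among differences of heat responses the equal-sums split was 123 and 526 in place of 156 and 292 under the label smxl4 smxl5, 384 and 420 in place of 303 and 837 for smxl6 smxl7 smxl8, and 30 and 37 in place of 50 and 30 for ski2 dcl4. No called change of the 7 genes turned in sign under any scaling in these genotype comparisons.

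Related genes of the same pathway did not all follow the 7. Over all genes heat in Col-0 called 57.2%, 29.9% higher and 27.3% lower, and the calls among proton pumps and sieve element genes, counted in either direction, were near that share. Among other sucrose transporters in Col-0, heat lowered 3 of 4 tested and raised 0, with SUC1 going from 42.6 ± 3.97 to 22.8 ± 5.13 FPKM and SUC4, a vacuolar carrier, from 2.98 to 1.22 FPKM. Of 9 other SWEET genes tested 5 fell and 0 rose, among them the glucose carrier SWEET1, from 10.6 to 3.06 FPKM. The other proton pumps rose in 3 of 7 cases and fell in 1, or 1 and 2 under equal sums, with HA1 at 133.5 and 178.1 FPKM (a call lost under equal sums, adjusted p = 0.471). HA11 stood at 15.4 ± 0.419 and 26.5 ± 6.46 FPKM (SD, n = 3), with heated libraries from 22.4 to 33.9 FPKM. In the phloem protein 2 family 3 of 11 rose, such as PP2-A5 from 6.34 to 11.6 FPKM, and 0 fell, but under equal sums 1 of 12 rose and 2 fell. Sieve element genes other than SEOA and SEOB fell in 6 of 11 cases and rose in 0, with a median log2 change of −0.42 against 0.01 over all genes. Examples are ENODL9, from 47.9 ± 5.25 to 9.39 ± 0.507 FPKM, and BAM3, a receptor kinase of early phloem, from 14.5 to 5.12 FPKM, and the list sum went from 89.4 to 102.4 FPKM at control to 42.4 to 44.1 FPKM after heat. ENODL9 was the most abundant of the list at control and carried most of the fall of that sum. Without a call, the means of APL, BRX and NEN4 went from 14.3 to 15.4, 1.72 to 1.84 and 1.49 to 1.66 FPKM. Other companion cell and loading genes were split, 4 higher and 7 lower of 14, or 1 and 9 under equal sums, with the transcription factor gene bZIP9 going from 39.9 to 62.6 FPKM and the sulfate transporter gene SULTR2;1 from 77.9 to 42.1 FPKM. Among enzymes that make or cleave sucrose 3 of 13 rose and 1 fell, or 3 and 4 under equal sums, including the invertase CINV1, from 53.7 to 91.9 FPKM, and the sucrose synthase SUS1, from 9.88 to 17.7 FPKM. Without Col-0 heat replicate 2 the sucrose enzymes gave 5 higher and 1 lower, the other sucrose transporters 2 lower, the phloem protein 2 genes 2 higher and the other companion cell genes 4 higher and 6 lower.

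Between the libraries labelled smxl4 smxl5 and Col-0 at control, 7 of 14 other companion cell and loading genes were lower and 3 higher, with a median log2 change of −0.28 against 0.01 over all genes, of which 15.3% were higher and 14.8% lower. The amino acid permease AAP2 stood at 53.9 ± 5.21 against 121.9 ± 4.61 FPKM and NaKR1, a metal-binding protein of companion cells, at 11.1 against 18.9 FPKM. After heat 9 of 14 were lower and 0 higher, against 17.2% and 19.1% of all genes, and NaKR1 (difference of heat responses −0.43, adjusted p = 0.0184) and SULTR2;1 (−0.57, adjusted p = 0.0417) also responded differently from Col-0. Sucrose enzymes were lower in 6 and higher in 1 of 13 at control, and lower in 8 and higher in 3 after heat, with SUS1 at 5.72 against 9.88 FPKM at control and 7.81 against 17.7 FPKM after heat. The phloem protein 2 family was lower in 5 and higher in 2 of 11 at control, with PP2-A13 at 6.26 ± 0.845 against 43.2 ± 7.62 FPKM and PP2-A8 at 7.39 against 1.72 FPKM. Sieve element genes were lower in 2 and higher in 1 of 11, close to the share over all genes, with APL, a regulator of phloem identity, lower at 10.3 against 14.3 FPKM and BAM3 higher at 18.8 against 14.5 FPKM. Other SWEET genes were higher in 4 and lower in 1 of 9, with SWEET15, known from senescing leaves, at 68.3 ± 23.8 against 8.10 ± 1.34 FPKM. Proton pumps other than HA3 were higher in 2 and lower in 0 of 7, HA11 standing at 30.3 against 15.4 FPKM, and of the 4 other sucrose transporters none was called by limma, 2 having an unadjusted p under 0.05.

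**Figure D5:**
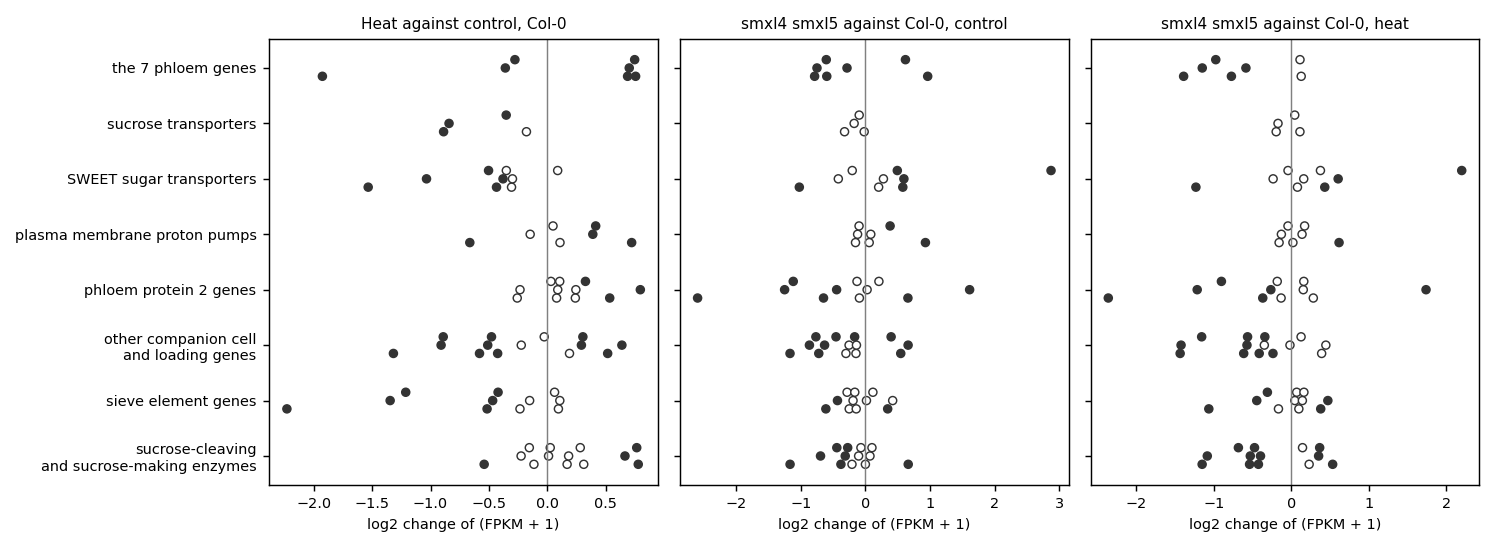
Log2 changes of (FPKM + 1) for the 7 phloem genes and the tested members of 7 related lists, for heat in Col-0 (left) and for libraries labelled smxl4 smxl5 against Col-0 at control (middle) and after heat (right); each point is a gene, filled where the adjusted p was under 0.05. Sieve element genes called with heat lie below 0, as do the 9 other companion cell genes called in the right panel.

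In ski2 dcl4 at control, SWEET15 stood at 136.5 ± 27.3 against 8.10 ± 1.34 FPKM in Col-0 and SWEET4 at 15.1 ± 1.30 against 0.626 ± 0.270 FPKM, with 5 of 9 other SWEET genes higher and 2 lower, where 16.1% of all genes were higher and 17.1% lower. The sucrose synthase SUS3 stood at 22.5 ± 4.61 against 2.63 ± 0.503 FPKM. These 3 were at 14.7, 0.800 and 2.79 FPKM in ski2 dcl4 dcl2 at control. Of the 11 sieve element genes other than SEOA and SEOB, 2 were higher and 1 lower in ski2 dcl4 than in Col-0 at control. After heat 5 were higher and 1 lower, against 22.3% and 17.2% of all genes, or 3 and 1 without Col-0 heat replicate 2. BAM3 was among the higher, at 8.84 against 5.12 FPKM, and APL was the lower, at 12.6 against 15.4 FPKM (adjusted p = 0.00645, or 0.245 under equal sums).

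Likeness was measured as the Pearson correlation of log2(FPKM + 1) over the 30 libraries, among 14147 genes that averaged 5 FPKM or more, and is given as a description because the libraries share conditions. SEOA and SEOB were the nearest genes to each other (0.984), and with group means removed their correlation was 0.812. PP2-A1 lay nearest to bZIP9 (0.966), AT5G45350 (0.958) and AT4G16180 (0.956), and SEOB next to the dehydrogenase genes ALDH6B2 (0.948) and GDH1 (0.947). SEOA lay next to AT5G12930 (0.935) and ALDH6B2 (0.934). SWEET12 lay nearest to EMB1444 (0.976), AT1G35115 (0.972) and PUP11 (0.971), and SWEET11 to RAP2.2 (0.922), AT5G01740 (0.911) and DIM1A (0.901). HA3 lay nearest to AT2G23540 (0.941), AT4G38080 (0.921) and MUM2 (0.910), and SUC2 to AT1G69360 (0.947), AT1G26920 (0.934) and AT1G22540 (0.934). With group means removed, the neighbours other than SEOA and SEOB ran from −0.04 (AT4G16180 with PP2-A1) to 0.78 (AT1G26920 with SUC2). Each lay below its value over the 30 libraries. Among the 7, SUC2 and HA3 correlated at 0.850, or 0.665 with group means removed, and SWEET11 and SWEET12 at −0.571, or −0.297 with group means removed.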

How the data were processed

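Messenger RNA of Arabidopsis seedlings was measured in 30 libraries, 3 in each of 10 groups of genotype and condition, which were taken from the labels. The authors deposited 1 value per gene and library, read here as FPKM from the values themselves (not whole, and smallest values that fall with transcript length). Per the submitters' processing notes the aligner Bowtie was used, with no version named. For the counter, build, annotation and strand setting, nothing is given in these sources. All value columns were matched to libraries. The labels give no sequencing batch or date.

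From these values log2(FPKM + 1) was computed, genes reaching 1 FPKM in 3 or more libraries were kept (21531 of 38088), and a linear model with 1 mean per group was fitted to the 30 libraries in limma 3.58.1 (R 4.3.3), with an intensity trend and Benjamini-Hochberg adjustment over all kept genes in each of 21 comparisons. The procedure was tested on simulated data with independent libraries, in which far fewer genes changed than heat called here. That test does not cover unequal sums or a library that stands apart. Ratios within libraries were compared by exact permutation. Gene positions, windows of 50 bases and the 250 bases before each start were read with Python 3.11.15 from RefSeq's TAIR10.1 assembly, to which 99.2% of identifiers matched and which need not be the build the authors used.

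Alternatives were other scalings (upper quartile, median of ratios and, chosen after the data were seen, equal sums, with all scalings, and leaving out Col-0 heat replicate 2, applied to the related lists then too), a pseudocount of 0.1, no filter, no trend, only the groups compared, a replicate block and leaving out each library. Median-of-ratios factors of the deposited values were 0.9891 to 1.017, so that scaling could change little. All 7 genes were named in every comparison, and from each related list up to 2 called genes with the smallest adjusted p, plus the 3 most alike genes of each. Not every gene the rule allows is described. The related lists were other sucrose transporters, SWEET genes, proton pumps, phloem protein 2 genes, other companion cell genes, sieve element genes, sucrose enzymes, and genes of mesophyll, root, xylem and the clock. The 7 genes and the lists were chosen with earlier results of these data known. Intervals cover the spread between libraries.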

Additional observations from a re-analysis of the deposited data

Results flagged for a closer look

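The response to heat differed from that of Col-0, by the interaction of genotype and heat in limma, for 3 of the 7 genes in the libraries labelled smxl4 smxl5. The differences in log2(FPKM + 1) were −0.85 for SWEET12 (adjusted p = 0.00463, with leave-one-out values from −0.99 to −0.72), −0.79 for HA3 (adjusted p = 0.000353, from −0.88 to −0.70) and −0.49 for SWEET11 (adjusted p = 0.0282, from −0.57 to −0.40). In smxl6 smxl7 smxl8 the same kind of difference was called for HA3, at −0.50 (adjusted p = 0.00843, from −0.59 to −0.44). Without Col-0 heat replicate 2, which stood apart in clock genes, the SWEET11 difference was −0.48 (adjusted p = 0.0512), while those of SWEET12 and HA3 were still called. Levels of SMXL4 and SMXL5 in the libraries labelled smxl4 smxl5, and of SMXL7 in smxl6 smxl7 smxl8, were also lower after heat than at control. Their part in these differences was not tested. With 3 libraries in each group, no gene was tested for outlying libraries.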

How the results depend on the processing

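Of 168 results, the counts of called genes in 21 comparisons and the 147 log2 changes, most kept their direction and their side of the threshold. Rescaling to equal FPKM sums, chosen after the data were seen, left 3 genes called for heat under the label smxl4 smxl5 and turned SWEET11 with heat in ski2 dcl4 to −0.02462 (adjusted p = 0.839). For the difference of heat responses in smxl6 smxl7 smxl8 the count was 2 under median-of-ratios rescaling, 0 with only the groups compared and 0 under equal sums. With only the groups compared, ski2 dcl4 dcl2 against Col-0 gave 1 gene at control and 0 after heat, and PP2-A1 lost its call in ski2 dcl4 after heat (adjusted p = 0.0734) and in smxl6 smxl7 smxl8 at control (0.144). The cause of these changes was not tested. With single libraries left out, the count ranged from 1 to 2 for the heat difference in smxl6 smxl7 smxl8, from 0 to 2 for ski2 dcl4 dcl2 against Col-0 after heat, from 2 to 4 for ski2 dcl4 dcl2 against ski2 dcl4 at control and from 1 to 2 for smxl6 smxl7 smxl8 against Col-0 after heat. Libraries with the same replicate number did not as a rule deviate together: 8 of 135 pairs had a correlation over 0.1. The correlations ran from −0.197 to 0.215, and the median was −0.0092. The labels give no batch, so batches that cut across replicate numbers could not be tested. A replicate block changed 1 call, SWEET11 in ski2 dcl4 dcl2 against ski2 dcl4 at control (adjusted p = 0.0518). Depth is an estimate, and values of a few FPKM, such as SWEET12 after heat, carry the largest share of counting error.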

Other observations

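Root and xylem genes were called with heat in Col-0 at about the share of all genes, 57.2% (29.9% higher and 27.3% lower). Heat lowered 4 of 10 root genes and raised 2 (6 and 0 under equal sums, 3 and 1 without Col-0 heat replicate 2), with the root patterning gene SCR going from 15.5 ± 0.542 to 7.64 ± 0.538 FPKM (SD, n = 3), and lowered 3 of 8 xylem genes and raised 2 (4 and 0 under equal sums), with the xylem protease XCP2 going from 39.4 ± 1.88 to 25.4 ± 5.20 FPKM. In ski2 dcl4 against Col-0, 7 of 8 xylem genes were lower at control and 8 of 8 after heat, or 6 and 7 under equal sums, where 17.1% and 17.2% of all genes were lower. HB-8, a regulator of vascular precursor cells, stood at 2.01 ± 0.733 against 8.87 ± 0.410 FPKM after heat (adjusted p = 2.45e-11). Mesophyll photosynthesis genes were lower in 6 of 9 cases in ski2 dcl4 at control and in 5 of 9 in the libraries labelled smxl4 smxl5 at control, where 14.8% of all genes were lower and RCA, the Rubisco activase, was higher at 4431 ± 167 against 2976 ± 287 FPKM.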
